A study of Mus musculus with 4 samples.

Results

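The DnaJ proteins, also called HSP40 proteins, are the cochaperones that bring unfolded clients to HSP70 chaperones. Their genes were taken as every probe set annotated to exactly 1 gene symbol that begins with Dnaja, Dnajb or Dnajc and a number. This gave 104 of the 34945 probe sets with 1 symbol, and 44 of 18193 genes: 4 of class A, 13 of class B and 27 of class C. Dnajc19 has only probe sets that it shares with its pseudogene, 3 in number, and so is no member by this rule.

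RNA came from HL-1, a beating cell line grown from an atrial tumour of a mouse whose Nppa promoter drove a viral oncogene, and so a transformed line rather than adult atrium. In the stimulated group (2 arrays) confluent HL-1 cultures received 24 h of electrical pacing at 300 beats per minute, which the labels put at about 1.5 to 2 times the control rate. In the control group (2 arrays) confluent HL-1 cultures beat on their own and were not stimulated, and both groups grew in Claycomb medium on coverslips coated with gelatin and fibronectin. No group was paced at the control rate, so the rate and the electrical stimulus itself cannot be told apart. The labels call the stimulated samples experiments 1 and 2 but do not say that the cultures were independent, so the p-values reflect only how far these arrays spread, which may be technical.

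A J domain, the part that all members share, docks on HSP70 and speeds its ATP hydrolysis, so that HSP70 closes on the client. Class A proteins have the build of bacterial DnaJ, with a glycine and phenylalanine stretch and a zinc finger after the J domain. Class B proteins lack the zinc finger, and class C proteins share only the J domain, which can lie anywhere in the chain. In muscle the family is known for keeping proteins folded under load and heat, and human DNAJB6 for mutations that cause a muscular dystrophy. Class C members mostly serve single tasks in the endoplasmic reticulum, mitochondria, vesicles and ribosomes.

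In the cells the atrial muscle markers were present: all 9 listed (Nppa, Myl7, Myl4, Myh6, Tnnt2, Actc1, Ryr2, Sln and Tbx5) passed the filter on dim genes, which keeps genes with a mean of at least 4.39 on the log2 scale. Their mean level was 10.85 to 11.27 on the stimulated arrays, against 11.40 to 11.62 on the control arrays. Of these markers Nppa rose and Ryr2 and Tbx5 fell. Among markers of other cells, the leukocyte list averaged 5.33 to 5.46 on stimulated arrays and 4.51 to 5.11 on control arrays. Ptprc and Itgam lay below the filter, while Cd3e and Csf1r passed it. Csf1r read 7.17 and 7.59 on stimulated arrays and 5.79 and 7.19 on control arrays. Cd68, the leukocyte marker that was called, read 6.34 and 6.59 on stimulated arrays and 4.07 and 4.70 on control arrays, so it passed the filter through the stimulated arrays. The mean of the smooth muscle list was 10.14 to 10.51 on stimulated arrays and 9.87 to 10.23 on control arrays. Myh11 lay below the filter, while Acta2, Tagln and Cnn1 passed it. Tagln read 12.48 and 12.91 on stimulated arrays and 11.49 and 12.10 on control arrays, and was not called. The fibroblast list read 4.34 to 4.54 on stimulated arrays and 4.42 to 4.72 on control arrays, with Col1a2, Col3a1 and Thy1 below the filter. Endothelial markers averaged 4.14 to 4.25 on stimulated arrays and 4.24 to 4.30 on control arrays, and Pecam1, Cdh5, Tek and Tie1 lay below the filter. Ventricular markers (Myl2, Myl3 and Irx4) averaged 6.08 to 6.37 on stimulated arrays and 6.56 to 6.59 on control arrays, with Irx4 below the filter. The part of these shifts in the results below was not tested, and in bulk RNA a change in the number of cells of a type and a change in RNA per cell cannot be told apart.

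With rapid pacing 3 DnaJ genes rose and none fell: Dnajb9 and Dnajb2 of class B, by 2.45-fold and 2.23-fold, and Dnaja1 of class A, by 1.74-fold. The largest change of the family, 4.04-fold for Dnaja4 of class A, missed the threshold (adjusted p = 0.0512, limma). Of the 44 genes, 39 passed the filter and were tested. Among those that were lower on the probe set used, only Dnajb4 had an unadjusted p under 0.05 by limma. In the limma fit of all probe sets, other probe sets of Dnajc3, Dnajc10, Dnajc18 and Dnajc22 were lower at an unadjusted p of 0.0068 to 0.0353. None of these was called. Calls rest on limma with Benjamini-Hochberg adjustment over all 13050 genes tested and a threshold of 0.05. The 3 calls are 7.69% of the 39 genes, while 5.55% of all genes tested were called, 3.91% higher and 1.64% lower. An unadjusted p under 0.05 was seen for 10 of the 39 genes, 25.6%, which is the same share as the 25.6% of all genes. Stimulated and control values were fully apart in 24 of the 39 genes, 61.5%, against 55.3% of all genes. A change of 2-fold or more was seen for 3 genes (Dnaja4, Dnajb9 and Dnajb2), 7.69%, against 3.18% of all genes. The shares called and at an unadjusted p under 0.05 thus lay near those of all genes, and the 3 members past 2-fold were 1 of class A and 2 of class B. With 1 array left out few genes of any kind passed: 0.536% of all genes when stimulated 1 was dropped and 0.866% when stimulated 2 was, against 0.307% when control 1 was dropped and 0.153% when control 2 was. Of the members Dnaja4 passed without stimulated 1, at an adjusted p of 0.0187 by limma, and 0 passed in the other 3 cases, so these counts say nothing particular about the family.

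**Figure D1:**
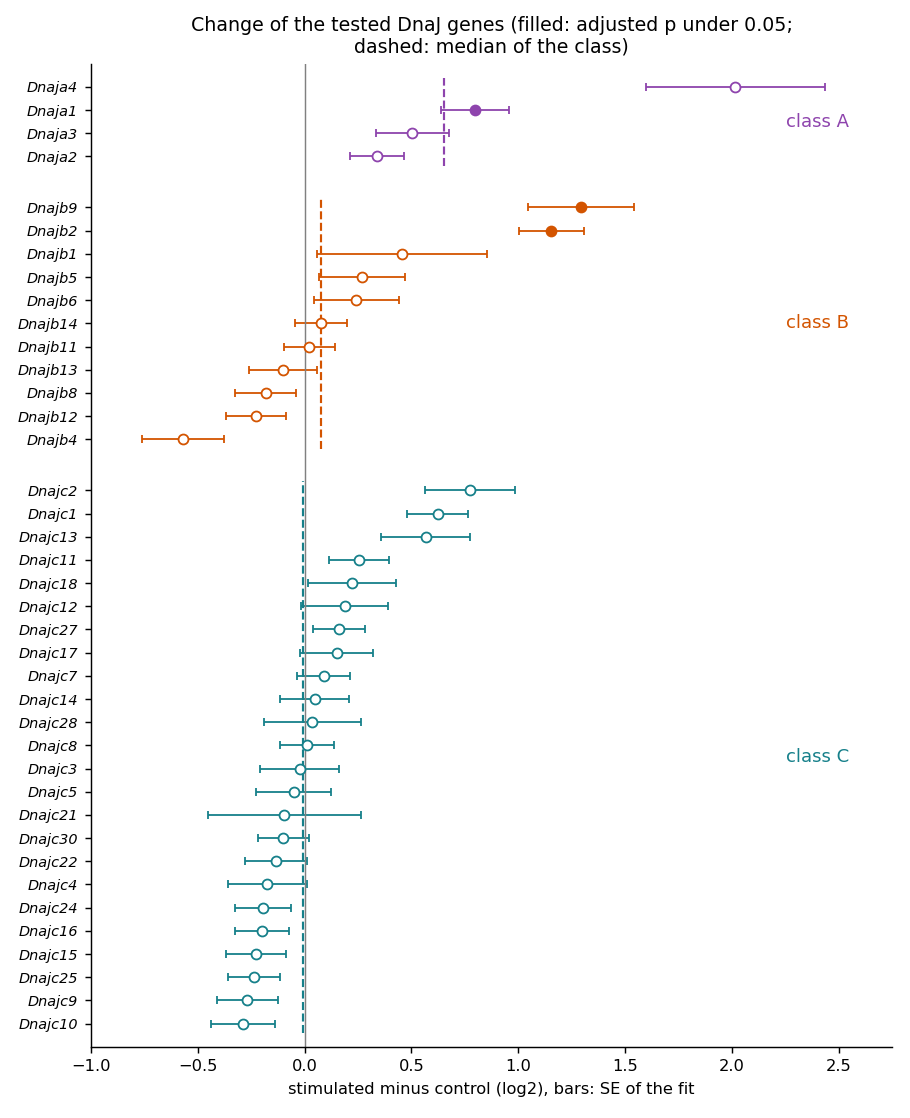
Change of each of the 39 tested DnaJ genes, given in log2 units as stimulated minus control and grouped by class; bars are the SE from limma. Filled points are the 3 called genes (Dnaja1, Dnajb2 and Dnajb9), and dashed lines mark the class medians of 0.65, 0.08 and -0.01.

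On the probe sets used, all 4 class A genes were higher on both stimulated arrays than on both control arrays. Their median change was 0.65, with a range of 0.34 to 2.01, and 1 of the 4 was called. Of 11 class B genes tested, 7 were higher and 4 lower, with a median of 0.08 and a range of -0.57 to 1.29, and 2 were called. Of 24 class C genes tested, 12 were higher and 12 lower, with a median of -0.0055, a range of -0.29 to 0.77 and 0 called, though 3 had an unadjusted p under 0.05 by limma. Over all 13050 genes the median was -0.0056 and 5.55% were called. An unadjusted p under 0.05 by limma was seen for 25.6% of all genes, against 4 of 4 in class A, 3 of 11 (27.3%) in class B and 12.5% of class C. On the probe sets used, the groups did not overlap in 4 of 4, 7 of 11 and 13 of 24 genes of classes A, B and C. The share of all genes was 55.3%. These are descriptions of the lists and no test of a difference between classes was made. The class B median is not firm in sign: it was -0.0286 without stimulated 2, and between 0.0514 and 0.10 without any other single array.

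The 2 stimulated arrays did not agree for several members. Their values differed by more than 0.5 in 9 of the 39 genes, 23.1%, against 8.06% of all genes tested. The 2 control arrays differed by more than 0.5 in 1 of the 39, Dnajc21, which is 2.56% against 5.19% of all genes. Stimulated 2 was the higher of the pair in 3 of 4 class A, 9 of 11 class B and 12 of 24 class C genes, and in 46.0% of all genes. In the cytosolic group that refolds clients with HSP70 it was higher in 8 of 9 genes, with a median difference of 0.43, and Dnajc7 was the exception. The 2 arrays are also the 2 experiments, so array and experiment cannot be told apart.

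**Figure D2:**
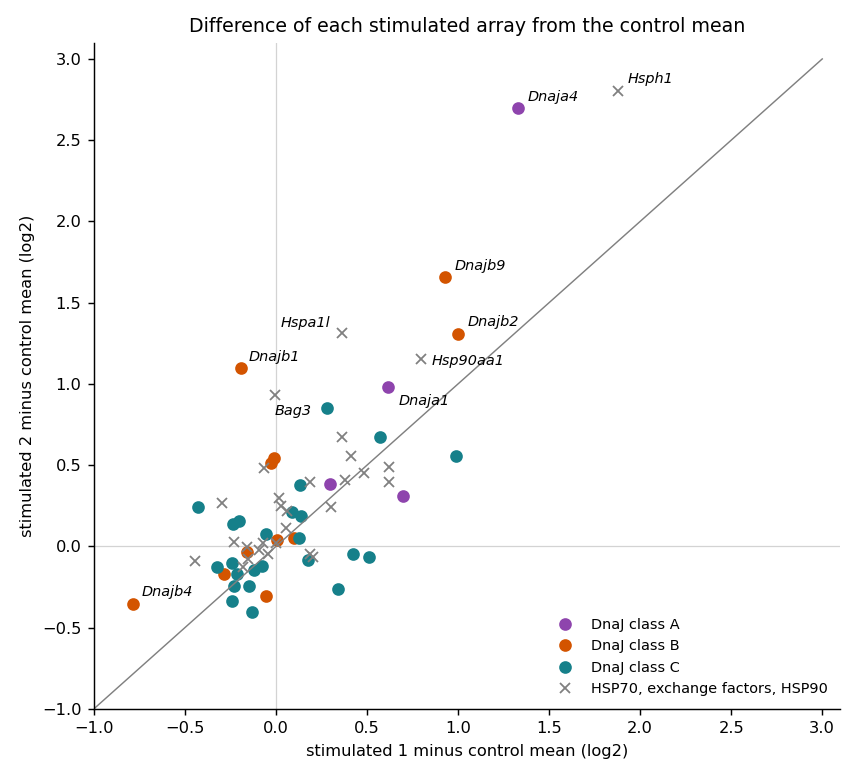
Difference of stimulated 1 (horizontal) and stimulated 2 (vertical) from the control mean, in log2 units, for the 39 tested DnaJ genes by class and for tested genes of the HSP70, exchange factor and HSP90 lists without Hspa1a and Hspa1b, whose values lie beyond the axes. Points above the diagonal were higher on stimulated 2, among them Dnaja4, Dnajb1, Dnajb9, Hsph1 and Bag3.

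Class A holds the family's most positive change. Dnaja4, a cytosolic cochaperone close in sequence to Dnaja1, read 8.998 and 10.37 on the stimulated arrays, against 7.79 and 7.55 on the control arrays. Both stimulated arrays lay above both controls, and the gap between the stimulated arrays was wider than that between the controls. The change was 2.01 ± 0.42 (SE) on the log2 scale, with a 95% interval of 0.99 to 3.04, and ranked 50 of the 13050 genes from the top. Its other probe sets gave 1.89 and 1.54, and stimulated 2 was the highest array on each. Dnaja4 passed when the filter was raised to the 60th percentile (adjusted p = 0.038, limma) and when the variance was given a trend on level (adjusted p = 0.0455, limma). It did not pass with no filter (adjusted p = 0.0589, limma), with the mean of all its probe sets (0.0767) or with arrays centred on their medians (0.0516). Nor did it pass in a limma fit of each probe set on its own (adjusted p = 0.0526).

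Dnaja1, a main partner of constitutive HSP70 in the cytosol, read 11.91 and 12.28 on the stimulated arrays, against 11.31 and 11.29 on the control arrays. The groups did not overlap, and the rise was 0.80 ± 0.16 (adjusted p = 0.0472, limma). Its other probe sets differed by 0.75 and 1.24. This call stood close to the threshold. It was lost with no filter (adjusted p = 0.0524, limma), with arrays centred on their medians (0.0505) and with the mean of all its probe sets (0.111). It was also lost in a limma fit of each probe set on its own (adjusted p = 0.0515). The call was kept with the 60th percentile filter (adjusted p = 0.0365, limma) and with the variance trend (0.0322).

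The other members of the class were shifted in the same direction without passing. Dnaja2, a second cytosolic cochaperone of this build, read 11.09 and 11.18 on stimulated arrays and 10.85 and 10.74 on control arrays, a change of 0.34 ± 0.13 (adjusted p = 0.163, limma). On its remaining probe sets the difference was 0.11 to 0.52. The groups overlapped on the Dnaja2 probe sets that gave 0.107 and 0.115. Dnaja3, the class A protein of mitochondria and a partner of Hspa9, read 9.97 and 9.58 on stimulated arrays and 9.17 and 9.36 on control arrays, a change of 0.50 ± 0.17 (adjusted p = 0.139, limma). Here stimulated 1 was the higher array, unlike in the cytosolic members of the class.

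The promoter of Dnaja1 is shown because heat shock factors bind inverted GAA and TTC units. The RefSeq promoter table (mouse GRCm38.p6) gives 250 bases before and 50 after each start and held 36 of the 44 genes, with 49 starts. A heat shock element of 3 units, GAANNTTCNNGAA or TTCNNGAANNTTC on both strands, was found in 1 of the 36 genes, Dnajb6, and in 0.603% of all 32851 promoters. The shorter GAANNTTC, which reads the same on both strands and lies within the longer motif, was added after the sequences had been read. It was found in 5 of the 36 genes (Dnaja1, Dnaja4, Dnajb6, Dnajc27 and Dnajc5g), by start in 6 of 49 promoters, and in 7.86% of all promoters. A match is a description of letters and not of binding. In the 30-base windows below capitals mark the match, all on the plus strand: Dnaja1 at chr4:40722333-40722362, Dnaja4 at chr9:54699458-54699487 and chr9:54699496-54699525, and Dnajb6, with 3 units, at chr5:29735844-29735873.
Dnaja1: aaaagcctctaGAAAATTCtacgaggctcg
Dnaja4, first match: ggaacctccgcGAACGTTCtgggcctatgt
Dnaja4, second match: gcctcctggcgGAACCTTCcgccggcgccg
Dnajb6: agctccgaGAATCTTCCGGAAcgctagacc

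The 250 bases upstream of the most upstream start of Dnaja1, at chr4:40722218-40722467 on the plus strand, put the match at position -124 (first base, counted from the start).
Dnaja1, upstream: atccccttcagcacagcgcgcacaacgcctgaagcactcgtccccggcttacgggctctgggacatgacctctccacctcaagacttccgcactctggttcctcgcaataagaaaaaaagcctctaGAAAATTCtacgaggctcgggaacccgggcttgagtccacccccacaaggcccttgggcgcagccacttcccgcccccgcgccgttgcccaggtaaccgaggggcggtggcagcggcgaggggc

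Among class B genes of the cytosol and nucleus (Dnajb1, Dnajb2, Dnajb4, Dnajb5 and Dnajb6), 1 was called, against 5.55% of all genes tested. Dnajb2, which is rich in neurons and carries ubiquitin-binding motifs that pass clients to the proteasome, read 9.63 and 9.93 on the stimulated arrays, against 8.58 and 8.67 on the control arrays. Its groups did not overlap, and the gap between them was more than the gap within either. The rise was 1.15 ± 0.15, with a 95% interval of 0.79 to 1.52 and the smallest adjusted p of the family (0.024, limma). Dnajb2 had 1 probe set. Without any single array the change was 1.00 to 1.31, at an adjusted p of 0.0565 to 0.133 by limma.

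The promoter of Dnajb2 is shown as that of the member with the smallest p. The 250 bases before its most upstream start, at chr1:75236173-75236422 on the plus strand, held none of the motifs searched.
Dnajb2, upstream: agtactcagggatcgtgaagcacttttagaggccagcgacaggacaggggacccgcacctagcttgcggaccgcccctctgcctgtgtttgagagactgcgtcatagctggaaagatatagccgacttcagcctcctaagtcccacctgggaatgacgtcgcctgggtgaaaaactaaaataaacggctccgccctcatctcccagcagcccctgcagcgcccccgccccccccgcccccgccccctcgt

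Dnajb1, the classical heat-inducible HSP40, gave a divided picture. On the probe set used it read 9.28 and 10.57 on the stimulated arrays, against 9.34 and 9.60 on the control arrays. Stimulated 1 thus lay below both controls and stimulated 2 well above them, and the change was 0.45 ± 0.40 (adjusted p = 0.545, limma). The second probe set read 9.51 and 10.69 on stimulated arrays and 8.88 and 9.04 on control arrays, a change of 1.14 ± 0.36 (adjusted p = 0.123 in the limma fit of all probe sets). There both stimulated arrays were above both controls. On the probe set used, the change was 1.10 without stimulated 1 and -0.19 without stimulated 2, so its direction depends on the array.

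Dnajb4, a heat-responsive cytosolic member, was the member with the most negative change on the probe sets used. It read 9.35 and 9.78 on the stimulated arrays, against 9.99 and 10.27 on the control arrays, a change of -0.57 ± 0.19 (adjusted p = 0.133, limma). Both stimulated arrays lay below both controls. Its other probe sets gave -0.42 and 0.46. With the mean of all its probe sets the change was -0.18, while that of Dnajc10 was -0.47.

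Dnajb6 and Dnajb5 had small differences on the probe sets used. Dnajb6, which keeps aggregation-prone proteins soluble, read 9.34 and 9.88 on stimulated arrays and 9.33 and 9.41 on control arrays. Its change was 0.24 ± 0.20 (adjusted p = 0.51, limma), and its other probe sets differed by 0.30, 0.51 and 0.57. Dnajb5, a cytosolic member of the Dnajb1 type, read 6.78 and 7.33 on stimulated arrays and 6.75 and 6.83 on control arrays, a change of 0.27 ± 0.20 (adjusted p = 0.47, limma), with 0.07 and -0.14 on the others. On the probe sets used, stimulated 1 lay at the level of the controls in both genes and stimulated 2 above it. Another Dnajb6 probe set read 9.41 and 9.52 on stimulated arrays and 8.92 and 8.99 on control arrays. Its dimmest read 6.46 and 6.08 on stimulated arrays and 5.65 and 5.76 on control arrays. The groups overlapped on the Dnajb6 probe set that gave 0.30. Dnajc7, a class C member with tetratricopeptide repeats that works between HSP70 and HSP90, differed little: 10.11 and 10.03 on stimulated arrays, against 10.03 and 9.93 on control arrays.

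**Figure D3:**
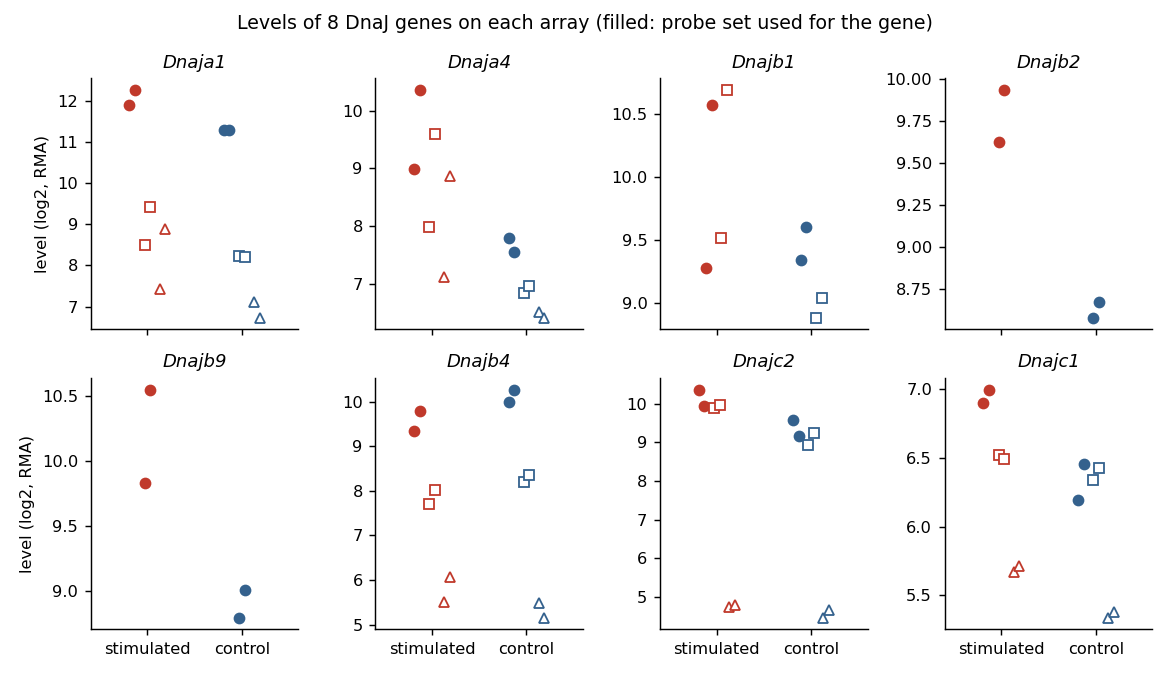
Levels on the log2 scale of 8 DnaJ genes on the stimulated (left) and control (right) arrays, 1 point per array and marker shape per tested probe set, with the probe set used filled. Dnajb2 and Dnajb9 have 1 probe set each and separate groups, whereas in Dnajb1 stimulated 1 lies at the level of the controls on the probe set used.

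Of the 10 members placed in the endoplasmic reticulum 1 rose, 0 fell and 9 did not pass, with a median change of -0.00013. Among all genes tested 5.55% were called. Dnajb9, known as ERdj4, is induced by the unfolded protein response and holds the sensor IRE1 inactive with the help of Hspa5. It read 9.83 and 10.55 on the stimulated arrays, against 8.79 and 9.002 on the control arrays. The rise was 1.29 ± 0.25 (adjusted p = 0.0441, limma), with no overlap between the groups, although stimulated 2 was 0.73 above stimulated 1. Dnajb9 kept its call in each of the 6 other settings run by gene with all 4 arrays. Its change was 0.93 to 1.66 without any single array, at an adjusted p of 0.0577 to 0.191 by limma.

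None of the other 9 members of this compartment passed. Dnajb11 (ERdj3), a soluble cofactor of Hspa5 and likewise known as a target of the unfolded protein response, read 11.04 and 11.07 on stimulated arrays and 11.03 and 11.03 on control arrays. Its change was 0.02 ± 0.12, with a 95% interval of -0.27 to 0.31. Dnajc3 (p58IPK), which restrains the kinase PERK and escorts clients in the lumen, read 9.43 and 9.79 on stimulated arrays and 9.46 and 9.80 on control arrays. Its change was -0.02 ± 0.19, with a 95% interval of -0.48 to 0.43, and its 4 other tested probe sets differed by -0.44 to -0.10. Dnajc10 (ERdj5), a disulfide reductase of degradation, read 9.33 and 9.23 on stimulated arrays and 9.72 and 9.41 on control arrays, a change of -0.29 ± 0.15 (adjusted p = 0.297, limma). Its other probe sets differed by -0.53 and -0.58, at an adjusted p of 0.0797 and 0.0768 in the limma fit of all probe sets.

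Dnajc1 (ERdj1), a membrane protein that meets ribosomes at the translocon, read 6.90 and 6.99 on the stimulated arrays, against 6.20 and 6.45 on the control arrays. The groups did not overlap, and the change was 0.62 ± 0.14 (adjusted p = 0.062, limma). It passed with the 60th percentile filter (adjusted p = 0.0494, limma), and its other tested probe sets differed by 0.12 and 0.33. The membrane proteins Dnajb12 and Dnajb14, which act in degradation of membrane clients, differed by -0.23 and 0.08. Dnajc16, Dnajc18 and Dnajc25, which also lie in membranes, differed by -0.20, 0.22 and -0.24. For Dnajc18 the other probe sets went the other way, by -0.48 and -0.12.

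The endoplasmic reticulum stress element, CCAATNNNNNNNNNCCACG on both strands, is the site through which ATF6 and XBP1 are known to act. It was found in 0.119% of all promoters and in 1 of the 36 DnaJ genes, Dnajc3, in the window chr14:118937822-118937851 on the plus strand (capitals). It was not in the 250 bases before the start of Dnajb9, at chr12:44210069-44210318 on the minus strand. The amino acid response element TGATGNAA, bound by ATF4, was in 0 of the 36 genes and in 3.97% of all promoters. Both sequences are shown because the gene that rose and the gene with the listed element were not the same.
Dnajc3: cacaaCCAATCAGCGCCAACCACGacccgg
Dnajb9, upstream: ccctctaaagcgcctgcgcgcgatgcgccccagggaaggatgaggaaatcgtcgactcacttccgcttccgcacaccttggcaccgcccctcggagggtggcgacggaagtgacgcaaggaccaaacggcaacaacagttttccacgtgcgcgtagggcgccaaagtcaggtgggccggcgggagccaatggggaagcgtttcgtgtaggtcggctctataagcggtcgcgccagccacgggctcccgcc

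Of 5 members that serve ribosomes, splicing and chromatin none was called, against 5.55% of all genes tested. Dnajc2, the ribosome-bound J protein that recruits HSP70 to nascent chains, read 10.36 and 9.93 on the stimulated arrays, against 9.59 and 9.17 on the control arrays. This was the class C gene with the most positive change, 0.77 ± 0.21 (adjusted p = 0.0882, limma), and its groups did not overlap. Another probe set rose by 0.83 ± 0.16 and was called in the limma fit of all probe sets (adjusted p = 0.0454), and a dimmer one gave 0.21. In that fit 3 of 89 tested DnaJ probe sets passed, those of Dnajb2, Dnajb9 and this one of Dnajc2, against 4.86% of all 23271 probe sets. Dnajc21, a factor of large ribosomal subunit assembly, varied within both groups: it read 8.17 and 8.84 on stimulated arrays and 8.13 and 9.08 on control arrays, a change of -0.09 ± 0.36. Its other tested probe sets differed by 0.50, -0.23 and -0.01. Dnajc8, a spliceosome component, differed by 0.01 ± 0.13 with a 95% interval of -0.29 to 0.32. Dnajc9, a histone chaperone of dividing cells, differed by -0.27 ± 0.14 (adjusted p = 0.307, limma). Dnajc17, another splicing factor, differed by 0.15 on the probe set used and by 0.70 and -0.06 on the others.

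Beside Dnaja3, 5 class C genes of mitochondria were tested and none passed, against 5.55% of all genes tested. Dnajc11, of the inner membrane organising complex, differed by 0.26 ± 0.14. Dnajc15, which sits at the import motor and dampens complex I, differed by -0.23 ± 0.14, and Dnajc4, Dnajc28 and Dnajc30 by -0.17, 0.04 and -0.10. Dnajc19, the import motor subunit left out of the family counts, read 8.84 and 9.07 on stimulated arrays and 9.47 and 9.26 on control arrays on its brightest shared probe set, where the gene and its pseudogene cannot be told apart. Of the vesicle members, Dnajc13, which sorts cargo on endosomes, read 8.73 and 9.31 on the stimulated arrays, against 8.37 and 8.53 on the control arrays. Its groups did not overlap and the change was 0.57 ± 0.21 (adjusted p = 0.162, limma), but its other probe set differed by -0.15. Dnajc5, the cysteine string protein of secretory vesicles, differed by -0.05 ± 0.18, and its 4 other probe sets by -0.28 to -0.04.

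The remaining class C genes tested were Dnajc12, which helps fold aromatic amino acid hydroxylases, Dnajc14, a membrane protein, Dnajc22, Dnajc24, which acts in diphthamide synthesis, and Dnajc27, a J domain joined to a small GTPase. On the probe sets used they differed by 0.19, 0.05, -0.13, -0.19 and 0.16, at adjusted p values of 0.421 to 0.899 by limma. Other tested probe sets gave -0.23 and -0.07 for Dnajc14, -0.22 for Dnajc24 and -0.09 for Dnajc27. That of Dnajc22 gave -0.55 (adjusted p = 0.0865 in the limma fit of all probe sets). Of 6 members known mainly from testis, Dnajb3, Dnajb7, Dnajc5b and Dnajc5g lay below the filter, at 3.24 to 4.36 over all arrays, as did Dnajc6, the clathrin uncoating factor of neurons, at 3.50 to 3.86. The 2 testis members that passed, Dnajb8 and Dnajb13, differed by -0.18 and -0.10, with Dnajb8 close to the filter level at 4.37 to 4.72.

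Of 27 genes with more than 1 tested probe set, 17 had the same sign on all of them. In 8 genes, Dnajb1, Dnajb4, Dnajc1, Dnajc2, Dnajc13, Dnajc17, Dnajc18 and Dnajc21, a probe set differed by over 0.5 from the one used. Class A genes had the same sign on every tested probe set. Probe sets of a gene can read different transcript ends or isoforms, and which of them applies here was not tested.

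**Figure D4:**
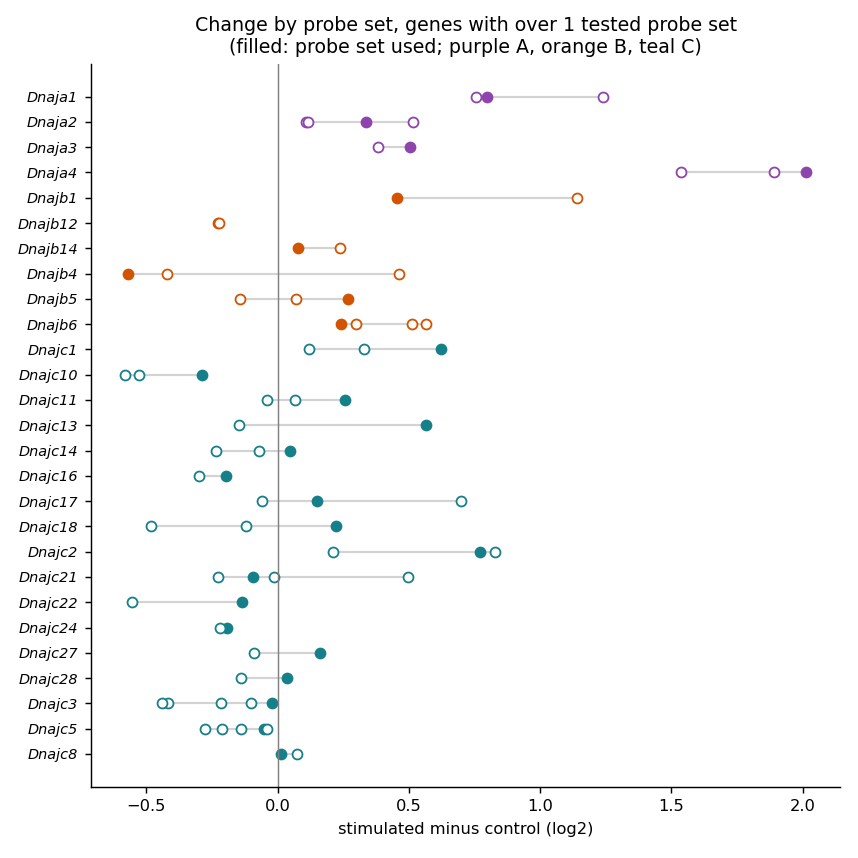
Change on the log2 scale of each tested probe set, for the 27 DnaJ genes with more than 1, with the probe set used filled. Purple, orange and teal mark classes A, B and C, and the lines span lowest to highest. All tested probe sets of the 4 class A genes lie above 0. Those of Dnajb4, Dnajb5, Dnajc11, Dnajc13, Dnajc14, Dnajc17, Dnajc18, Dnajc21, Dnajc27 and Dnajc28 lie on both sides of it.

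The HSP70 system that these cochaperones serve was read from lists beside the family. Their counts of called genes stand beside the 5.55% of all genes tested that were called. Among 10 tested genes of the HSP70 family 2 rose and 0 fell, with a median change of 0.33. These were the inducible Hspa1a, at 11.44 and 12.59 on the stimulated arrays and 3.42 and 4.05 on the control arrays, and Hspa1b, at 12.89 and 13.51 on the stimulated arrays and 8.16 and 7.87 on the control arrays. The control values of Hspa1a lay below the filter level, so it was tested only because its stimulated values were high. Set against the filter level, it was at least 198-fold higher in stimulated cells. Hspa1b rose by 5.19 ± 0.23 on the log2 scale (adjusted p = 0.00165, limma). Their sequences are nearly identical, so the probe sets may not tell them apart. Hspa1l also had a control mean below the filter level, 4.33, with a stimulated mean of 5.17. The counts and the median of this list include Hspa1a and Hspa1l. The partners that are always present did not pass: Hspa8 of the cytosol differed by 0.39 ± 0.12 (adjusted p = 0.112, limma), Hspa9 of mitochondria by 0.55 ± 0.12 (adjusted p = 0.0597, limma) and Hspa5 of the endoplasmic reticulum by 0.27 ± 0.13 (adjusted p = 0.267, limma).

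Nucleotide exchange factors release the client by swapping ADP for ATP on HSP70. Of 14 tested 1 rose and 0 fell, with a median of 0.14: Hsph1, of the HSP110 type, read 11.49 and 12.42 on the stimulated arrays, against 9.69 and 9.53 on the control arrays, a rise of 2.34 ± 0.30 (adjusted p = 0.0227, limma). Bag3, the exchange factor of stressed muscle, read 8.51 and 9.44 on stimulated arrays and 8.61 and 8.43 on control arrays. Stimulated 1 lay between the controls and stimulated 2 above them, and the change of 0.46 ± 0.30 did not pass (adjusted p = 0.404, limma). Of 7 tested HSP90 and heat shock factor genes, Hsp90aa1, the inducible cytosolic HSP90, rose by 0.97 ± 0.18 (adjusted p = 0.0405, limma) and 0 fell. Among these 7, Hsf2 had a control mean of 4.38, just below the filter level, and a stimulated mean of 4.59. The J-domain genes that carry other names, Sec63, Hscb and Gak, differed by 0.10, 0.06 and 0.20 and none passed. Medians of these lists stand beside -0.0056 over all genes, and their called counts beside 5.55% of all genes tested. Hsf1 and Hsp90ab1 are not analysed here. Stimulated 2 was the higher of its pair in 7 of 10 HSP70, 11 of 14 exchange factor and 6 of 7 HSP90 and heat shock factor genes tested, and in 46.0% of all genes. It was above stimulated 1 by 0.92 in Hsph1 and 0.94 in Bag3, while the difference was -0.13 in Hspa9, -0.23 in Hspa14 and -0.26 in Hyou1.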

How the data were processed

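Each of 2 stimulated and 2 control HL-1 samples was read on its own Affymetrix array after biotin labelling. The deposited values are on the log2 scale and were made with RMA, per the submitters' processing notes; its version and settings are not given in the sources used here. Values ran from 2.34 to 14.29 and array medians from 4.96 to 5.01.

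Gene symbols came from the platform annotation. A gene was read from its probe set with the highest mean among those with 1 symbol, and genes with a mean at or above the 40th percentile of all 45101 probe sets (4.39) were tested. Stimulated and control arrays were compared across all genes by two-sided moderated tests (limma 3.58.1, R 4.3.3) with Benjamini-Hochberg adjustment; the code was tested on simulated data. Levels are given per array, changes as stimulated minus control ± SE. The number of arrays limits precision: with 2 arrays a group the smallest two-sided p of an exact permutation test is 0.333. Members, lists and motifs were chosen with earlier results of these data known. Every member is named, with partner genes that passed and the HSP70 genes that pair with a compartment. Of other partners Bag3, Hspa14, Hspa1l, Hsf2, Hyou1, Sec63, Hscb and Gak are also named, and none of these passed. Scanner files, slides and scan dates are not used here. Protein sequences are not used here.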

Additional observations from a re-analysis of the deposited data

How the results depend on the processing

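All genes called numbered 724, and 643 to 934 with no filter, the 60th percentile filter, the mean of all probe sets, centred arrays or a variance trend. A fit of all probe sets called 1130 of 23271 probe sets. With 1 array left out, where the lone array of a group is assumed to vary like the others, they numbered 20 to 113 (70 without stimulated 1, 113 without stimulated 2, 40 without control 1, 20 without control 2). The 3 DnaJ calls became 2 with no filter, with the mean of all probe sets and with centred arrays, 4 with the variance trend, 5 with the 60th percentile filter (Dnaja4 and Dnajc1 added), and 0 to 1 with 1 array left out. The class A median was 0.61 to 0.69 in all of these settings. That of class B was 0.02 with no filter, 0.24 with the 60th percentile filter and with the fit of all probe sets, and -0.0286 to 0.10 with 1 array left out. The class C median, -0.0055, was 0.0115 with the 60th percentile filter, 0.0078 with centred arrays, -0.0925 with the mean of all probe sets, -0.0916 with the fit of all probe sets and -0.0673 to 0.0509 with 1 array left out. Control titles carry no replicate number, but the treatment text of 1 control names experimental sample 2. A replicate block on the pairs this implies, chosen after seeing the data, called 1346 genes and 7 DnaJ genes, adding Dnaja4, Dnajc1, Dnajc2 and, lower, Dnajb4, with 1 residual degree of freedom. The differences between the arrays of a group correlated at 0.33 across genes, which are not replicates, and the labels do not say that the numbers mark shared cultures. Over 10 settings the 387 values of single members gave 0 reversed calls, 15 calls lost and 8 gained. The causes were not tested.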
